A study of Rattus norvegicus with 12 samples.

Results

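The miRs described here are rno-miR-103-3p, rno-miR-107-3p, rno-miR-15b-5p, rno-miR-195-5p and rno-miR-497-5p, written below without the species prefix, and are 5 of the 426 miRs counted in the serum EVs of rats with an injured Achilles tendon. They were chosen by name, as the pair of miR-103 and miR-107 and 3 relatives with a partly shared seed, and all 5 were present in the count table. EVs are small membrane vesicles that cells release into body fluids with RNA cargo. The question put to these data was whether treatment with rapamycin, an inhibitor of the kinase mTOR, altered the levels of these miRs in circulating EVs after tendon injury.

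Female wild-type Wistar rats aged 12 weeks received a single needle puncture of the left Achilles tendon, and all 4 groups carried this injury. Treated rats (RAPA) were injected daily with 2 mg of rapamycin per kg of body weight, which came to 5 doses for the day 7 groups and 19 for the day 21 groups, and untreated rats (VEH) received vehicle by the same schedule. Small RNA was sequenced from 3 rats in each of the groups RAPA day 7, VEH day 7, RAPA day 21 and VEH day 21. Rapamycin was first dissolved in DMSO, which the vehicle as described did not hold. The sample labels name the tissue as tendon, whereas the extraction protocol and the methods describe EVs from serum. The paper cautions that separation by size alone may not suffice to isolate EVs, and that they could not be fully characterised. The counts may therefore include serum miRs from outside EVs. No serum from uninjured rats was part of the comparison, so the effect of the injury itself could not be read. The study's supplement lists 10 of the 12 libraries for its miR analysis and gives no reason for the absence of RAPA day 7 replicate 2 and VEH day 7 replicate 1. These libraries are called unlisted below, and fold changes are given for the 10 listed libraries first and then for all 12.

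The unlisted libraries stood apart from the rest. The listed libraries held 16327 to 51391 miR counts and 0.686 to 1.58 miR counts per count of the spike-in calibrators, synthetic RNAs added to each sample. The unlisted RAPA library held 51431 miR counts, or 5.53 per calibrator count, and the unlisted VEH library held 95834, or 12.8 per calibrator count. A count of 3, the lowest that was read as a level, corresponded to 58.4 to 184 CPM (counts scaled to a common library total) in the listed libraries, to 58.3 CPM in the unlisted RAPA library and to 31.3 CPM in the unlisted VEH library. Since PCR copies were not marked, this floor and the intervals of shares below account for counting error alone. The summed level of 4 erythrocyte miRs was 71741 to 144627 CPM in the listed libraries, 37307 CPM in the unlisted RAPA library and 14578 CPM in the unlisted VEH library.

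miRs guide Argonaute proteins to messenger RNAs, and the seed, the run of bases near the 5′ end, sets most of the pairing. The family of miR-15 and miR-107 is a group of miRs whose 5′ ends share a core. miR-103 and miR-107 are encoded inside pantothenate kinase genes, which make enzymes of coenzyme A synthesis, and are known for lowering insulin sensitivity in liver and fat through caveolin-1, upstream of the PI3K, AKT and mTOR pathway. miR-15b, miR-195 and miR-497 belong to the miR-15/16 branch, which is known for repressing cyclins and BCL2 and so for slowing the cell cycle and favouring apoptosis. miR-195 and miR-497 are produced from one cluster that is known from muscle and heart.

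The mature sequences are shown because the likeness between the members sets how well their reads could be told apart. They were taken from RefSeq (GRCr8), read 5′ to 3′, with the seed at bases 2 to 8 in capitals.
miR-103-3p: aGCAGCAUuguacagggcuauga
miR-107-3p: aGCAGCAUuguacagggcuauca
miR-15b-5p: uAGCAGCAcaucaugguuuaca
miR-195-5p: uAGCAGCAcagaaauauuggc
miR-497-5p: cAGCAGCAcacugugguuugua
miR-16-5p: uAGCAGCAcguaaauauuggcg
The last of these, miR-16-5p, is no member but is the most abundant relative in these libraries and the closest sequence to miR-195-5p.

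The members fell into 2 seeds. miR-103-3p and miR-107-3p shared the seed GCAGCAU, and miR-15b-5p, miR-195-5p and miR-497-5p shared AGCAGCA with miR-16-5p. The core AGCAGC starts at the first base in the pair of miR-103-3p and miR-107-3p and one base further along in the miR-15/16 branch, and 8 of the 693 mature rat miRs in the RefSeq table (1.15%) held it within the first 8 bases. miR-103-3p and miR-107-3p differed at 1 of 23 positions, G22C, counted from the 5′ end with the base of miR-103-3p first. The study's mapping to miRBase allowed 1 mismatch, so the split of reads between these miRs is uncertain. Their sum is the firmer quantity only if reads that fit both were not counted for each, which is not known here. miR-16-5p and miR-195-5p differed at 2 of 21 positions, G10A and U11G, with the base of miR-16-5p first.

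The members come from 4 chromosomes in GRCr8. The miR-103-3p sequence lies at chr3:138963278-138963300 on the plus strand, within the span of Pank2, and a second miR-103 hairpin that gives the same mature miR was not placed here, so the counts cannot be assigned to one locus. miR-107-3p lies at chr1:241750431-241750453 on the minus strand, within the span of Pank1. miR-15b-5p lies at chr2:155555197-155555218 on the plus strand within the span of Smc4, a condensin gene, next to miR-16-5p at chr2:155555343-155555364. On chromosome 10, miR-497-5p lies at chr10:55450172-55450193 and miR-195-5p at chr10:55450509-55450529, both on the plus strand, and their hairpins are 255 bases apart. The RefSeq gene table used here gives gene spans and no exons, and it shows no other gene over the miR-195 and miR-497 hairpins.

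The levels of the 5 members spanned more than 2 orders of magnitude, in the order miR-103-3p, miR-107-3p, miR-497-5p and then miR-15b-5p and miR-195-5p. Levels are given as CPM after scaling of all 12 libraries by the trimmed mean of M values (TMM). They are compared between miRs per count, since mature miRs are of like length, although adapter ligation can favour some sequences. Over the 10 listed libraries, the lowest level of miR-103-3p (27847 CPM) was above the highest of miR-107-3p (6766 CPM), and the lowest of miR-107-3p (4697 CPM) was above the highest of miR-497-5p (3162 CPM). In both unlisted libraries miR-497-5p was above miR-107-3p, and in RAPA day 21 replicate 3 it had the same 5 counts as miR-15b-5p. miR-15b-5p and miR-195-5p overlapped throughout and did not differ beyond their spread.

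**Figure D1:**
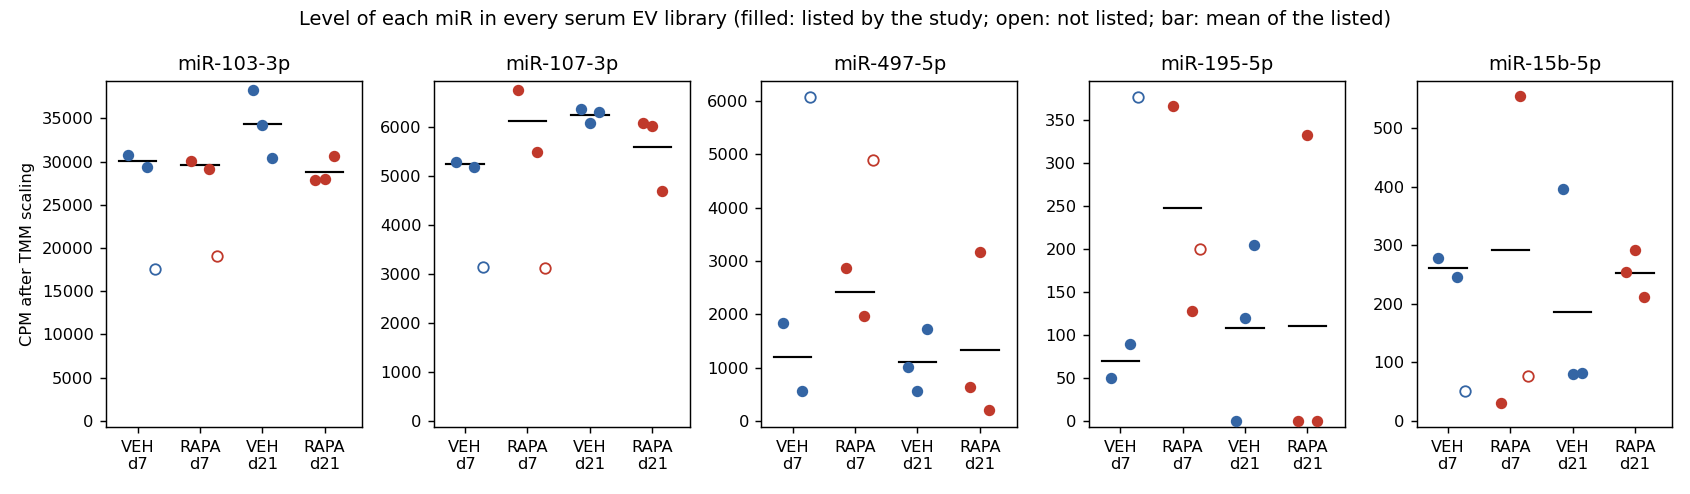
Level of the 5 members in CPM after TMM scaling (linear axes that differ between panels) in each library of the 4 groups, with VEH in blue and RAPA in red. Filled points are listed libraries, open points are the 2 unlisted libraries and horizontal bars are means of the listed libraries; miR-103-3p and miR-107-3p are lowest and miR-497-5p is highest in the open points.

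miR-103-3p, the most abundant member, held a narrow range in every listed group. At day 7 it stood at 30033 and 29188 CPM in the listed RAPA libraries (981 and 685 counts) and at 30797 and 29327 CPM in the listed VEH libraries (1220 and 1316 counts). At day 21 it stood at 27847, 28003 and 30676 CPM with RAPA (439, 673 and 725 counts) and at 38285, 34226 and 30378 CPM with VEH (1062, 853 and 742 counts). The treatments overlapped at both timepoints, with the highest level in VEH day 21 replicate 1. The unlisted libraries gave 19024 CPM with RAPA (1234 counts) and 17603 CPM with VEH (2101 counts), both below every listed library. The miR ranked between the 8th and the 15th most abundant in each library.

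miR-107-3p was the second most abundant member in every listed library. At day 7 the listed RAPA libraries held 6766 and 5497 CPM (221 and 129 counts) and the listed VEH libraries 5301 and 5192 CPM (210 and 233 counts). At day 21 the levels were 6090, 6033 and 4697 CPM with RAPA (96, 145 and 111 counts) and 6381, 6099 and 6305 CPM with VEH (177, 152 and 154 counts). The listed RAPA libraries lay above the listed VEH libraries at day 7, which 52% of 75 miRs showed in one direction or the other, and the groups overlapped once the unlisted libraries entered. At day 21 the RAPA libraries lay below the VEH libraries on this scale, where 14.9% of 74 miRs did not overlap, and the groups overlapped on the scale of the 10 libraries alone. Both unlisted libraries were again below every listed one, at 3130 CPM with RAPA (203 counts) and 3142 CPM with VEH (375 counts).

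The share of miR-107-3p in the sum of the pair does not depend on the scaling between libraries. It averaged 15.7% ± 1.68 (SD, n = 12) and ran from 13.3% in RAPA day 21 replicate 3 (95% Wilson interval 11.1 to 15.7) to 18.4% in RAPA day 7 replicate 1 (16.3 to 20.7). RAPA libraries spanned 13.3 to 18.4% and VEH libraries 14.3 to 17.2%, so the treatments overlapped. The unlisted libraries lay inside the listed range, with 14.1% and 15.1%. The pair together took 3.01 to 3.86% of all miR counts in the listed libraries, and 2.79% and 2.58% in the unlisted RAPA and VEH libraries.

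miR-497-5p varied far more. At day 7 it stood at 2878 and 1960 CPM in the listed RAPA libraries (94 and 46 counts) and at 1843 and 557 CPM in the listed VEH libraries (73 and 25 counts). At day 21 it stood at 634, 3162 and 212 CPM with RAPA (10, 76 and 5 counts) and at 1009, 562 and 1720 CPM with VEH (28, 14 and 42 counts). RAPA day 21 replicate 2 was the highest of the listed libraries and RAPA day 21 replicate 3 the lowest, within one group. The unlisted libraries were above all listed ones, at 4887 CPM with RAPA (317 counts) and 6083 CPM with VEH (726 counts), and together held 71.6% of the counts of this miR over the series, against 33.1% of the counts of all miRs.

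miR-195-5p, encoded beside miR-497-5p, was near the lower limit of the depth. At day 7 the listed libraries gave 12 and 3 counts with RAPA and 2 and 4 with VEH, against 13 and 45 counts in the unlisted RAPA and VEH libraries. At day 21 the counts were 0, 8 and 0 with RAPA and 0, 3 and 5 with VEH. Of the 10 listed libraries, 6 were at or under 3 counts, so a difference between groups was not detectable at this depth unless it was large. Its highest levels were 377 CPM in the unlisted VEH library, 367 CPM in RAPA day 7 replicate 1 and 333 CPM in RAPA day 21 replicate 2, and these 3 libraries were among the 4 highest for miR-497-5p. miR-497-5p made up 82.4 to 100% of the counts of the cluster in every library.

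miR-15b-5p was also sparse, with 67 counts over the listed libraries against 37 for miR-195-5p, and 3 of these libraries were at or under 3 counts. At day 7 it had 1 and 13 counts in the listed RAPA libraries and 11 and 11 in the listed VEH libraries, and 5 and 6 in the unlisted RAPA and VEH libraries. At day 21 it had 4, 7 and 5 counts with RAPA and 11, 2 and 2 with VEH. The listed RAPA libraries of day 7 thus spanned 30.6 to 554 CPM within 1 group and covered every other library. Its chromosomal neighbour miR-16-5p, by contrast, had 732 to 2783 counts in the listed libraries, and miR-15b-5p made up 0.0620 to 1.11% of the sum of the pair.

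At day 7 none of the 5 members passed the test for a difference between RAPA and VEH. Differential expression was tested on the counts of all miRs with the quasi-likelihood test of edgeR, and a miR was called at a Benjamini-Hochberg adjusted p under 0.05 over the miRs above an abundance cutoff. The spread behind each SE, interval and p of edgeR was pooled almost wholly over miRs. It is therefore not the spread of the single miR between rats. Of the 30 miRs above the cutoff in the 10 listed libraries, 10% were called, and 0 of the 5 members were. Only miR-103-3p was above it, with a log2 fold change of 0.02 (SE 0.34, 95% interval -0.65 to 0.69, edgeR adjusted p = 0.943). Below the cutoff, the log2 fold change was 0.27 for miR-107-3p (SE 0.45, interval -0.62 to 1.16) and 1.05 for miR-497-5p (SE 0.63, interval -0.18 to 2.28, edgeR unadjusted p = 0.0949). The 2 sparse members had wide intervals, from -1.06 to 4.68 around 1.81 for miR-195-5p and from -2.15 to 2.52 around 0.18 for miR-15b-5p.

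The scaled day 7 levels of miR-107-3p, miR-195-5p and miR-497-5p did not overlap between the listed RAPA and VEH libraries, with RAPA higher in each. For miR-195-5p the counts themselves, 12 and 3 with RAPA against 2 and 4 with VEH, did overlap and lay mostly near the floor of 3. With 2 libraries a group this held for 52.0% of the 75 miRs that reached 10 counts in every listed library, so it does not set the members apart. That set leaves out miR-195-5p and miR-497-5p, which did not reach 10 counts in each. The exact permutation test over these libraries could not go below p = 0.333. Over all 12 libraries 0.935% of the miRs tested were called. The groups of every member overlapped there, as did those of most miRs, with 1.35% of 74 not overlapping. The log2 fold changes were 0.01 for miR-103-3p (SE 0.46), 0.17 for miR-107-3p (SE 0.51) and 0.19 for miR-497-5p (SE 0.56), each with an edgeR adjusted p of 0.994. For miR-195-5p and miR-497-5p the estimate thus moved from 1.81 to 0.37 and from 1.05 to 0.19 on the log2 scale when the unlisted libraries entered.

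At day 21 none of the members was called either, with 1.09% of the 92 miRs above the cutoff called. On the scale of the 10 listed libraries the treatments overlapped for every member, while 10.7% of 75 miRs did not overlap. The log2 fold change of RAPA against VEH was -0.10 for miR-103-3p (SE 0.28, interval -0.65 to 0.45, edgeR adjusted p = 0.909). It was -0.03 for miR-107-3p (SE 0.37, interval -0.76 to 0.70, adjusted p = 0.991) and 0.39 for miR-497-5p (SE 0.52, interval -0.64 to 1.42, adjusted p = 0.850). Without RAPA day 21 replicate 2 the estimate for miR-497-5p turned to -1.32 (edgeR adjusted p = 0.249), and it was also below 0 with that library kept when the mean of log2 CPM was compared (-0.19) or the replicate number was added to the model (-0.35), so these data give no direction for it. miR-15b-5p and miR-195-5p were below the cutoff, with log2 fold changes of 0.55 (SE 1.02) and 0.21 (SE 1.25), and that of miR-195-5p turned to -4.65 without the same library, which held all 8 of the RAPA counts. Over all 12 libraries 0 of 426 miRs were called by edgeR, where 12 had an unadjusted p under 0.05, DESeq2 on the 10 libraries called 0, and miR-103-3p and miR-107-3p had log2 fold changes of -0.25 (SE 0.46) and -0.16 (SE 0.51). On the 12-library scale miR-107-3p did not overlap between the treatments, as was the case for 14.9% of 74 miRs, and its exact permutation p was 0.1, the smallest possible with 3 libraries against 3.

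With both timepoints in 1 model and day as a block, 4.55% of the 110 miRs above the cutoff were called and again no member was. This comparison gave the narrowest intervals. The log2 fold change was -0.05 for miR-103-3p (SE 0.21, interval -0.45 to 0.35, edgeR adjusted p = 0.908) and 0.09 for miR-107-3p (SE 0.28, interval -0.46 to 0.65, adjusted p = 0.908). In the 10 listed libraries a change of miR-103-3p by more than 0.45 in either direction on the log2 scale thus lay outside the interval. For miR-497-5p, at 0.66 (SE 0.40, interval -0.13 to 1.45, adjusted p = 0.405), a rise of 1 did not. Because the spread was pooled over miRs, these intervals do not measure how far each miR varied between rats. The value of miR-497-5p was -0.05 without RAPA day 21 replicate 2. Over all 12 libraries 7.69% of 26 miRs were called. The values there were -0.12 (SE 0.31, the wider interval -0.72 to 0.48) for miR-103-3p, 0.01 (SE 0.35) for miR-107-3p and 0.24 (SE 0.40) for miR-497-5p. The exact permutation p of miR-497-5p in the 10 libraries was 0.617, against a smallest possible p of 0.0167 over 120 arrangements, and the exact p of every member was 1 after adjustment over all miRs.

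**Figure D2:**
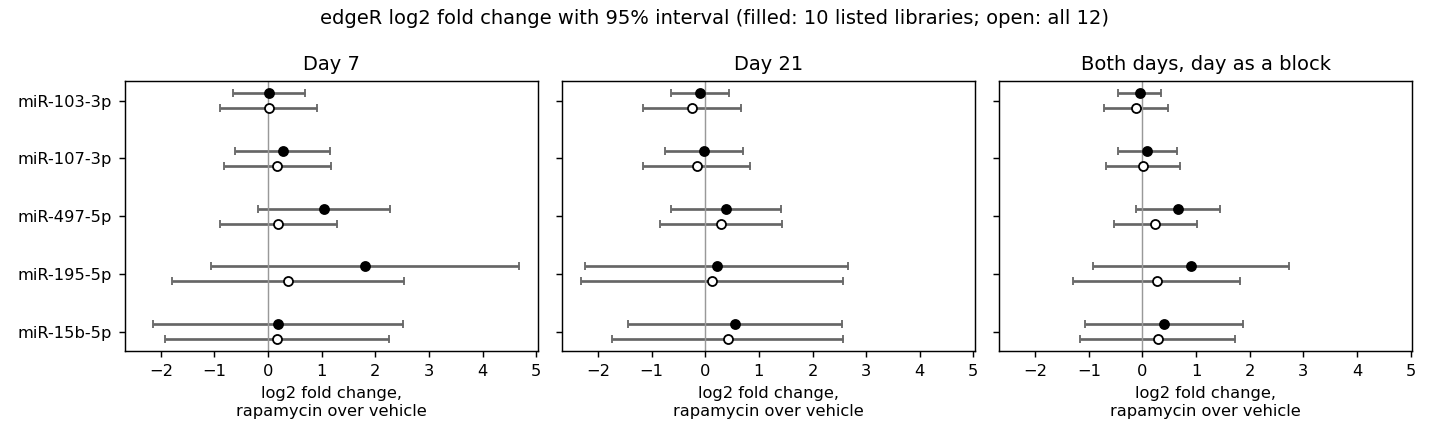
Log2 fold change of RAPA over VEH (x axis) for each member with its 95% interval from edgeR, at day 7, at day 21 and over both days with day as a block. Filled points use the 10 listed libraries and open points all 12; every interval includes 0, those of miR-103-3p are the narrowest, and those of miR-195-5p and miR-15b-5p are several times wider.

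Between day 7 and day 21 no member was called in the 10 libraries with either treatment. With vehicle, 0.274% of the 365 miRs tested were called. miR-107-3p was higher at day 21 in every library than at day 7, with 3 libraries against 2, which 12% of 75 miRs showed in one direction or the other. Its log2 fold change was 0.27 (SE 0.42, interval -0.55 to 1.08, edgeR adjusted p = 1), and over all 12 libraries, where 6.76% of 74 miRs did not overlap and 0.952% of 315 were called, it was 0.46 (SE 0.51, adjusted p = 0.788). The exact permutation p of miR-107-3p was 0.1 in both sets, the smallest possible there. miR-103-3p had a log2 fold change of 0.20 (SE 0.31) with overlapping groups.

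With rapamycin, 1.37% of 292 miRs were called between the timepoints. miR-103-3p and miR-107-3p had log2 fold changes of 0.08 (SE 0.31, adjusted p = 0.987) and -0.03 (SE 0.42, adjusted p = 1). miR-497-5p had a log2 fold change of -0.78 (SE 0.57, interval -1.89 to 0.33, edgeR adjusted p = 0.923). The groups of every member overlapped between the timepoints with rapamycin, while those of 21.3% of 75 miRs in the listed libraries and of 18.9% of 74 miRs in all 12 did not. Without RAPA day 21 replicate 2, the library in which miR-497-5p was high, the value was -2.55 (edgeR adjusted p = 0.00121) and miR-497-5p was called, but the share of all miRs called rose as well, to 21.1% of 123. The test of whether the rapamycin effect differed between the timepoints, where 0.274% of 365 miRs were called, gave -0.66 for miR-497-5p (SE 0.81, edgeR adjusted p = 1), and without that library, where 7.46% of 134 miRs were called, -2.40 (adjusted p = 0.0494). For the other members this difference was -0.12 (SE 0.44) for miR-103-3p, -0.30 (SE 0.59) for miR-107-3p, -1.60 (SE 1.93) for miR-195-5p and 0.37 (SE 1.56) for miR-15b-5p, each uncalled. Over all 12 libraries 0.340% of 294 miRs were called for this difference, and the value of miR-497-5p was 0.10 (SE 0.80).

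Over all 12 libraries the log2 fold change of miR-497-5p between day 7 and day 21 was -1.37 with vehicle (SE 0.58, edgeR unadjusted p = 0.0171, adjusted p = 0.385) and -1.27 with rapamycin (SE 0.58, unadjusted p = 0.0273, adjusted p = 0.284), where 5.84% of 154 miRs were called. Neither passed the adjusted test. With vehicle the value was -0.12 (SE 0.58) once the unlisted library was left out. The median log2 change of all 426 miRs between the timepoints with vehicle was -0.43 over the 12 libraries, and the unlisted libraries are both from day 7, so a change with time and the unlisted libraries move together there.

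Single markers of several other tissues were high in some of the libraries where miR-497-5p was high. miR-133a-3p, a miR of skeletal muscle, stood at 8596 CPM (1026 counts) in the unlisted VEH library, at 1872 CPM (45 counts) in RAPA day 21 replicate 2 and at 1163 CPM (38 counts) in RAPA day 7 replicate 1, and had 0 and 1 counts in RAPA day 21 replicates 1 and 3. miR-122-5p, a miR of hepatocytes, stood at 9375, 3994 and 8848 CPM in the same 3 libraries and at 381 and 0 CPM in RAPA day 21 replicates 1 and 3. miR-199a-5p, from the list of fibroblast and tendon miRs, stood at 2237, 915 and 1041 CPM and then at 254 and 42.3 CPM. These 3 miRs were named because they were high or low with miR-497-5p in the libraries shown here, so they do not show a general likeness. The unlisted RAPA library, with miR-497-5p at 4887 CPM, was not among these libraries. There the muscle list summed to 740 CPM, below the 1872 and 1163 CPM of miR-133a-3p above. The liver list summed to 8679 CPM there and the fibroblast and tendon list to 10221 CPM. In the listed VEH day 7 libraries the liver list summed to 3938 to 4056 CPM, beside the 3994 CPM of miR-122-5p above. Yet miR-497-5p was at only 1843 and 557 CPM in those libraries.

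The summed lists were less uniform. All 4 muscle miRs were in the table, and their sum ran from 0 to 1872 CPM in listed RAPA libraries, from 40.1 to 532 CPM in listed VEH libraries, and was 740 and 8839 CPM in the unlisted RAPA and VEH libraries. The highest of these sums were nearly all miR-133a-3p, which did not hold for each of the lower ones. miR-133b-3p and miR-206-3p were at 0 in every listed library. Among the listed libraries, miR-1-3p had 0 counts in RAPA day 21 replicate 2. It had its most, 5 counts, in VEH day 7 replicate 3, where miR-497-5p was at 557 CPM. The 3 liver miRs summed to 0 to 10141 CPM in listed RAPA libraries, to 321 to 6223 CPM in listed VEH libraries, and to 8679 and 10766 CPM in the unlisted RAPA and VEH libraries; miR-194-5p was at 0 in the listed VEH libraries. The 4 fibroblast and tendon miRs summed to 10113 to 22802 CPM, 11914 to 15646 CPM, and 10221 and 15592 CPM in the same order, so the sum of that list was not raised in the unlisted libraries. The part of RNA from any of these tissues in the values of miR-497-5p was not tested. In serum, a change in the number of EVs from one cell type and a change in the RNA per EV cannot be told apart.

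Across the 9 relatives of the miR-15 and miR-107 family found among 12 listed names, 0 were called in either direction in any of these comparisons. Few were above the abundance cutoff in the treatment comparisons of the 10 libraries, with 2 of 9 at day 7, 5 at day 21 and 5 with day as a block, beside the 10%, 1.09% and 4.55% of all tested miRs that were called there. The median log2 fold change of the 9 relatives was 0.18 at day 7, 0.21 at day 21 and 0.11 with day as a block, beside 0.00, 0.00 and 0.03 over all 365 miRs. Over the miRs above the cutoff it was -0.13, 0.01 and 0.08. The family medians at day 7 and day 21 are the values of the sparse miR-15b-5p (SE 1.19) and miR-195-5p (SE 1.25), so they do not show a rise of the family. miR-16-5p, which represses cyclins and BCL2, was the most abundant relative at 52046 ± 7378 CPM (SD, n = 10 listed libraries), and its log2 fold change with day as a block was 0.11 (SE 0.19, edgeR adjusted p = 0.851). miR-15a-5p, of the same branch, stood at 4191 ± 406 CPM (SD, n = 10), with a log2 fold change of 0.04 (SE 0.30, adjusted p = 0.939). The opposite arms of the members' hairpins were rare. miR-15b-3p had 0 to 7 counts a library, miR-195-3p 0 to 12 and miR-497-3p 0 to 1.

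miR-497-5p took a larger part of the family, and miR-16-5p a smaller one, in the unlisted libraries than in any listed one. In the listed libraries miR-16-5p took 49.4 to 60.7% of the family's counts and miR-103-3p with miR-107-3p 33.8 to 44.8%. miR-497-5p took 0.214 to 3.24%. In the unlisted RAPA library miR-497-5p took 9.23% (95% Wilson interval 8.31 to 10.2) and miR-16-5p 43.4%, while miR-103-3p with miR-107-3p took 41.8%, inside the listed range. In the unlisted VEH library miR-497-5p took 14.6% (13.7 to 15.6), miR-16-5p 30.0% and miR-103-3p with miR-107-3p 49.8%, above it. These shares are within a library and were not changed by the scaling.

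**Figure D3:**
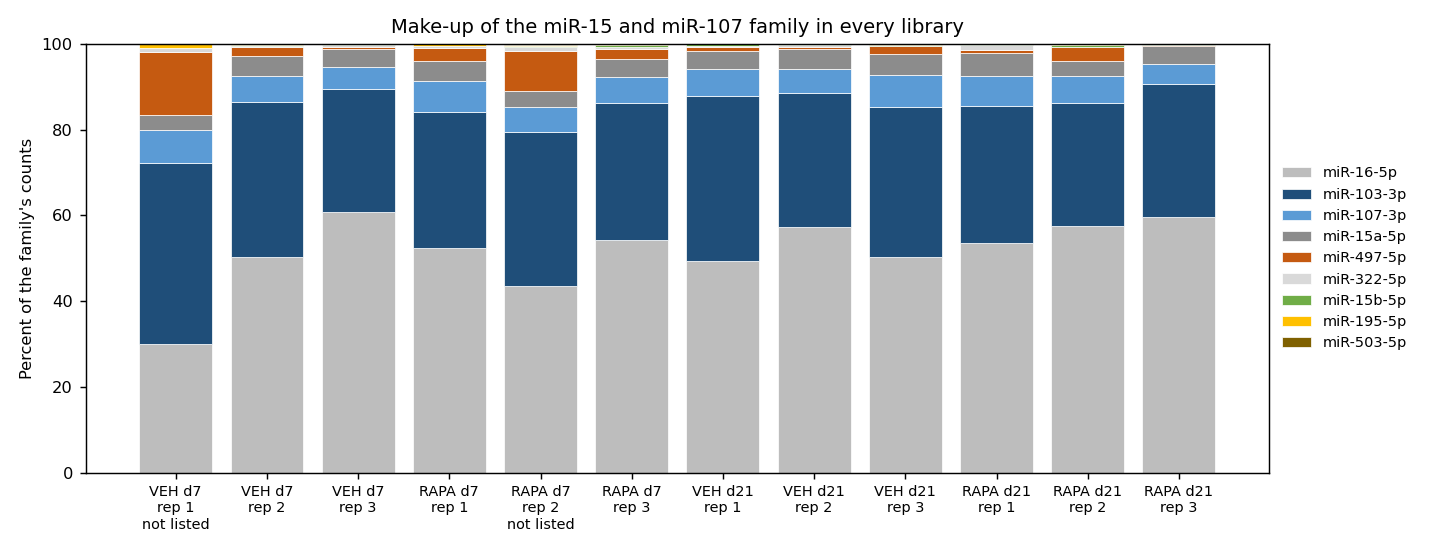
Share of each relative in the counts of the miR-15 and miR-107 family (y axis, percent) in each of the 12 libraries (x axis, grouped by treatment and day). miR-16-5p and miR-103-3p make up most of each bar, and the orange block of miR-497-5p reaches 9.23% and 14.6% in the 2 unlisted libraries against at most 3.24% elsewhere.

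miR-103-3p and miR-107-3p were among the steadiest miRs in the listed libraries. Over the same 75 miRs, the median coefficient of variation (CV) was 28.5%, with a range from 9.69 to 83.6%. miR-103-3p had a CV of 10.2%, the 2nd lowest, and miR-107-3p 10.9%, the 3rd lowest, where counting error alone would give 3.53% and 8.16%. The lowest was the relative miR-15a-5p at 9.69%, where counting error would give 9.60%. Both stayed among the 10 lowest CVs under the other scalings, which were chosen after the data had been seen: 3rd and 1st of 75 with TMM over the 10 libraries, 1st and 5th without TMM, and 9th and 10th per calibrator count, where their CVs rose to 26.8% each and the median of all miRs to 36.1%. Over all 12 libraries their CVs were 19.7% and 22.3%, and they were 5th and 9th of 74. The other members spread widely, with CVs over the listed libraries of 70.4% for miR-497-5p, 64.9% for miR-15b-5p and 104% for miR-195-5p, where counting error would give 16.2, 40.2 and 54.1%.

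**Figure D4:**
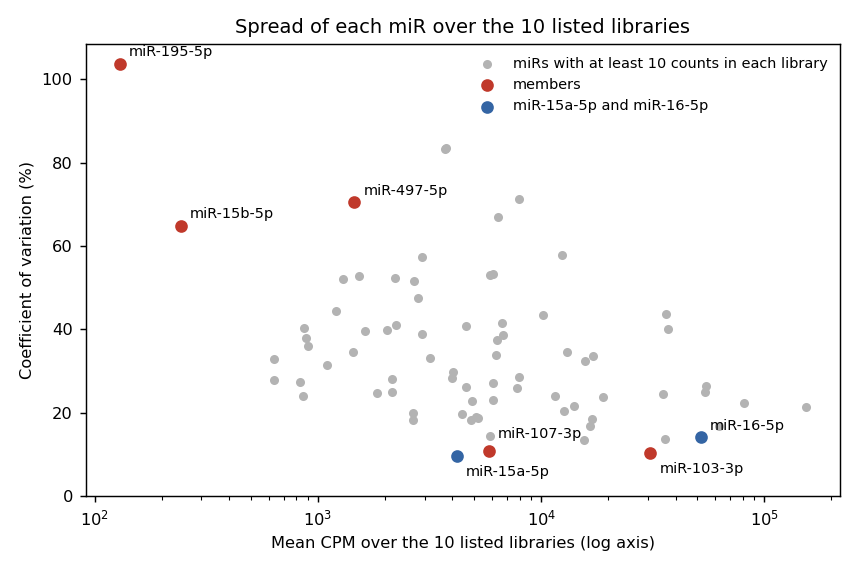
Coefficient of variation (y axis, percent) against mean level in CPM (x axis, log axis) over the 10 listed libraries, for the 75 miRs that reached 10 counts in each of them (grey) and the members (red). miR-103-3p and miR-107-3p lie at the lower edge with miR-15a-5p (blue), while miR-497-5p, miR-15b-5p and miR-195-5p lie at 64.9% or more.

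The small library-to-library differences of miR-103-3p and miR-107-3p were not correlated in the listed libraries. Their Spearman correlation over these 10 libraries was -0.10, so that miR-107-3p was 47th of 74 miRs in likeness to miR-103-3p, while over all 12 libraries it was 0.52. On the scale of the 10 libraries the CV of miR-107-3p was 8.94%, where counting error alone would give 8.23%. The correlation over 10 libraries therefore cannot tell whether the pair moved together, and the split of reads between them is uncertain. The same limits hold for the miRs most like miR-107-3p. The miRs most like miR-103-3p were miR-128-3p (0.70 over 10 libraries and 0.90 over 12), miR-98-5p (0.68 and 0.80) and miR-17-5p (0.67 and 0.86). The miRs most like miR-107-3p were miR-203a-3p (0.64 and 0.49), miR-23b-3p (0.58 and -0.18) and miR-145-5p (0.49 and -0.27). These correlations describe 10 or 12 libraries that share the scaling between libraries, and none was tested.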

How the data were processed

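Small RNA from serum EVs of 12 rats was sequenced, 3 per treatment and day. The authors deposited raw read counts per mature miR: reads were trimmed (cutadapt 3.3, minimum length 17 bases) and mapped with Bowtie 1.3.0 to the rat genome with up to 2 mismatches and to miRBase with up to 1 mismatch. Versions are from the submitters' processing notes. The 10 spike-in rows were left out of totals and tests. Counts were tested with edgeR 4.0.16 (quasi-likelihood, TMM, two-sided, all groups in 1 fit, Benjamini-Hochberg over miRs above the abundance cutoff that gave most calls, as in the independent filtering of DESeq2) in the 10 listed libraries, and again in all 12. Intervals are the estimate ± 1.96 SE, with a spread that edgeR pooled almost wholly over miRs. Exact permutation tests over samples used the mean log2 CPM (prior count 2). The fit with day as a block was also run on counts simulated from the spread it had estimated for miRs of like abundance. That run does not bear on miRs whose own spread differs from this, or on the comparisons within a day. Alternatives were DESeq2 1.42.0, other scalings and filters, only the groups compared, a replicate block, and leaving out each library. The 5 members were named whatever their values. Relatives in the family list were named at 10 or more counts in every library, and opposite arms if present. The 3 miRs most alike by Spearman correlation were named for members with 10 or more counts in every listed library. The members and lists were chosen with earlier results of these data known. Replicates are separate rats per the labels. Mature sequences and positions came from RefSeq (GRCr8), and 8 of the 9 relatives in the table matched.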

Additional observations from a re-analysis of the deposited data

Results flagged for a closer look

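Of 20 sets of 5 or 6 libraries (each member by treatment, in the listed libraries and in all 12), 3 held a library far from the others by Dixon's criterion, which chance flags in about 1 of 20 sets. miR-103-3p stood at 19024 CPM in the unlisted library RAPA day 7 replicate 2, against 27847 to 30676 CPM in the other 5 RAPA libraries. miR-107-3p stood at 3142 CPM in the unlisted library VEH day 7 replicate 1, against 5192 to 6381 CPM in the other 5 VEH libraries. miR-497-5p stood at 6083 CPM in that same VEH library, against 557 to 1843 CPM. No set of 5 listed libraries held such a library.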

How the results depend on the processing

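No member was called under the 9 alternatives that change the scaling, the filter, the tool, the model or the set of libraries. Leaving out 1 of the 10 listed libraries gave 0 to 1 members called for day 21 against day 7 with rapamycin and for the difference of the rapamycin effect between timepoints, where miR-497-5p was called without RAPA day 21 replicate 2 (values from -2.55 to -0.34 and from -2.40 to -0.12), and 0 in the other comparisons. Of 248 member values under the 9 alternatives 219 kept their sign and 29 changed it, and of 300 with a library left out 272 kept it, 26 changed it and 2 became called. No value that changed sign was more than 1.65 times its SE in the main analysis. Where 1 library was left in a group, it was assumed to vary like the other groups. The cause of a changed sign was not tested.

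All 12 libraries: with vehicle between days, miR-15b-5p 0.021 and miR-195-5p -0.73, with rapamycin miR-107-3p 0.13 and miR-15b-5p 0.27, and miR-497-5p 0.10 for the difference of effects. Without TMM: miR-103-3p 0.012 for both days and -0.069 between days with rapamycin. With calibrator counts as library size, which moved the median of all miRs to -0.27 for both days and to -0.35 and -0.30 between days with vehicle and rapamycin: at day 7 miR-103-3p -0.17 and miR-15b-5p -0.22, for both days miR-107-3p -0.21 and miR-15b-5p -0.048, between days with vehicle miR-103-3p -0.16 and miR-107-3p -0.11, and with rapamycin miR-103-3p -0.51. With DESeq2 miR-103-3p was 0.0041 for both days. With the edgeR count filter miR-107-3p was 0.013 at day 21 and 0.029 between days with rapamycin.

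Same-numbered samples showed no regular shared deviation (correlations of deviations from -0.48 to -0.02 over 4 pairs in the listed libraries, -0.78 to 0.31 over 6 pairs in all 12). So few pairs cannot exclude a pairing by number. A replicate block called 0 members and gave miR-195-5p -0.27 and miR-497-5p -0.35 at day 21, miR-497-5p 0.59 between days with vehicle and miR-15b-5p 0.054 with rapamycin. The replicate block with all 12 libraries gave miR-15b-5p -0.055 at day 7, miR-195-5p -0.25 and miR-497-5p -0.34 at day 21, miR-107-3p -0.0029 for both days, miR-15b-5p 0.22 and miR-195-5p -0.54 between days with vehicle, and miR-107-3p 0.14 and miR-15b-5p 0.59 with rapamycin. Over all miRs the block moved the calls from 3 to 6 at day 7, 1 to 0 at day 21 and 5 to 2 for both days.

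With each library left out, values with a changed sign ran over these ranges. At day 7: miR-103-3p -0.059 to 0.15, miR-15b-5p -2.84 to 1.15. At day 21: miR-195-5p -4.65 to 0.90, miR-497-5p -1.32 to 0.78. For both days: miR-107-3p -0.024 to 0.097, miR-15b-5p -0.26 to 0.87, miR-497-5p -0.046 to 0.93. Between days with vehicle: miR-195-5p -0.17 to 1.19, miR-497-5p -0.79 to 1.01. With rapamycin: miR-103-3p -0.074 to 0.14, miR-107-3p -0.29 to 0.032, miR-15b-5p -1.14 to 2.86. For the difference of effects: miR-15b-5p -0.67 to 3.33.

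Over all miRs the number called, in the order of the comparisons above, was 3, 1, 5, 1, 4 and 1. It ran from 0 to 16 (only the day 7 groups in the fit), 0 to 7, 0 to 10, 0 to 3, 0 to 26 and 0 to 10 under the alternatives, and DESeq2 and the edgeR count filter called 0 in each. Depth limits miR-15b-5p and miR-195-5p, which had 67 and 37 counts in all 10 listed libraries.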
